A study of Mus musculus with 16 samples.

Results

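The genes described here are 40 cell cycle genes, 14 of DNA replication and 26 of mitosis, read on 16 arrays of CD11b+ cells from mouse spleen and bone marrow. A member was found by matching the accession of each noncontrol probe to its gene symbol, and the probe with the highest mean signal stood for the gene. All 40 members passed the filter of being well above background on at least 2 arrays, among 28797 features tested in all. The replication genes were Mcm2, Mcm3, Mcm4, Mcm5, Mcm6, Mcm7, Pcna, Rrm1, Rrm2, Tyms, Tk1, Ccne1, Ccne2 and E2f1. The mitosis genes were Cdk1, Ccna2, Ccnb1, Ccnb2, Plk1, Aurka, Aurkb, Melk, Foxm1, Bub1, Bub1b, Ttk, Cdc20, Ube2c, Cenpa, Cenpe, Cenpf, Birc5, Top2a, Mki67, Kif11, Kif20a, Kif23, Tpx2, Nusap1 and Prc1.

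The arrays covered WT mice and mice labelled STAT4-/-, STAT6-/- or HDC-/-, named for a lost gene: Stat4 and Stat6 encode transcription factors of cytokine signalling, and Hdc encodes histidine decarboxylase, which makes histamine. Mice ate a control diet or a high-fat diet (HFD) for 3 months, a diet given to model atherosclerosis. CD11b (gene Itgam) is an integrin of granulocytes, monocytes and macrophages. Each combination of genotype, tissue and diet had 1 array, its RNA was pooled from 5 mice, and every mouse was labelled male; the labels give neither strain nor age, nor whether the pools of different arrays came from separate mice.

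A dividing cell first copies its DNA and then separates the copies. The MCM2 to MCM7 proteins form the helicase that opens DNA at the fork, PCNA is the clamp that holds polymerases on DNA, and E2F1 with the E-type cyclins starts the programme. Mitotic kinases such as CDK1, the aurora kinases and PLK1 then act with the kinetochore, the spindle motors and the anaphase promoting complex. In bone marrow, granulocyte precursors divide through the promyelocyte stage, which makes the primary granules, and the myelocyte stage that follows, and mature neutrophils do not divide.

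The 2 gene sets also differ in the letters before their start sites. Windows of 250 bases before to 50 bases after the RefSeq start (assembly GRCm38.p6) were at hand for 33 members (35 windows) and were searched on both strands. Prc1 and Mcm7 had 2 windows each. Those of Prc1 overlapped, so shared bases were counted in both, and the 22 mitosis windows came from 21 genes. The word TTTGAA, the core of the cell cycle homology region known from late cell cycle genes, was found in 16 of 22 mitosis windows (72.7%) and in 1 of 13 replication windows (7.69%). It was found in 17.9% of all 32851 windows of that length. CCAAT, the word bound by NF-Y, was in 86.4% of mitosis windows, 69.2% of replication windows and 37.4% of all windows. Any of the E2F-type words TTTCCCGC, TTTGGCGC, TTTCGCGC and TTTGCCGC was in 4.55% of mitosis windows, 30.8% of replication windows and 2.26% of all windows. The 4 replication windows with such a word belonged to the helicase genes Mcm3, Mcm5, Mcm6 and Mcm7. No other replication gene with a window had one. TTTGAA and CCAAT shared a window in 72.7% of mitosis windows, 7.69% of replication windows and 6.95% of all windows. A match is a description of letters, not a binding site.

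Windows of 4 mitosis genes follow, 5′ to 3′ on the strand of the gene, chosen to show TTTGAA beside CCAAT. Capitals mark the words or their reverse complements (TTCAAA and ATTGG).
Ccnb2, chr9:70421505-70421804, minus strand: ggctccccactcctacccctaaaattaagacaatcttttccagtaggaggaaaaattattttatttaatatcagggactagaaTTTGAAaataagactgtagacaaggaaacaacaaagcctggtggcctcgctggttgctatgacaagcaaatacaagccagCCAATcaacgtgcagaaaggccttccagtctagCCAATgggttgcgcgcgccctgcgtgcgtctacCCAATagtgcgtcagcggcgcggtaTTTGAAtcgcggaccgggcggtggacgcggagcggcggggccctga
Cdk1, chr10:69352863-69353162, minus strand: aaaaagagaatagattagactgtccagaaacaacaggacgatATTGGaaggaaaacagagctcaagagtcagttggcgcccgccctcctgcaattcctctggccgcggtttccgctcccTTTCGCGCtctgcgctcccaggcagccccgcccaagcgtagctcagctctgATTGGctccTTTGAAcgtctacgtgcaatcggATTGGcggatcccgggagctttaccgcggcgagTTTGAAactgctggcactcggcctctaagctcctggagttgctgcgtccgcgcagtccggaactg
Mki67, chr7:135716330-135716629, minus strand: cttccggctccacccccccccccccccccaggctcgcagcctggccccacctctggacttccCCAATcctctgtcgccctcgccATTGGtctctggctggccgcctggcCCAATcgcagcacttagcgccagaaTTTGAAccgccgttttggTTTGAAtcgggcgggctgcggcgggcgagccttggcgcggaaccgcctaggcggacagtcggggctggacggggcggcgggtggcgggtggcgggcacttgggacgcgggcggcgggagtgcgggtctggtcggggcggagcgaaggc
Ube2c, chr2:164769679-164769978, plus strand: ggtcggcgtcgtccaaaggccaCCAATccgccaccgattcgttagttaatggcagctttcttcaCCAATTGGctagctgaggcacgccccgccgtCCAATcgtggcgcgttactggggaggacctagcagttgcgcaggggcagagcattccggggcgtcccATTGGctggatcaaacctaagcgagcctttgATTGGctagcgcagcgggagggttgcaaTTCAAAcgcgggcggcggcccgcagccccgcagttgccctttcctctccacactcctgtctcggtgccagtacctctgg
In Ccnb2 (cyclin B2) the 3 CCAAT words end at -83, -50 and -17, counted from the start, and the 2 TTTGAA words begin at -167 and at base 4 after the start. Cdk1 is the 1 mitosis window with an E2F-type word, TTTCGCGC, beside its 2 TTTGAA and 3 CCAAT words. In Ube2c, which had 6 CCAAT words, 1 pair overlaps on opposite strands.

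Windows of 3 helicase genes show E2F-type words with CCAAT and no TTTGAA.
Mcm3, chr1:20820263-20820562, minus strand: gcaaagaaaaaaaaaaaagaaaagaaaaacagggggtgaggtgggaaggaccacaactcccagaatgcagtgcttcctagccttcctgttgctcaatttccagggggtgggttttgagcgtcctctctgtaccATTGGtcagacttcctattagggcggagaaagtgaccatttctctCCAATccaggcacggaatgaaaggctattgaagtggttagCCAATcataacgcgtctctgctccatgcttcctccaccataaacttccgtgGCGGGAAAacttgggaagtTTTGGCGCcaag
Mcm5, chr8:75109259-75109558, plus strand: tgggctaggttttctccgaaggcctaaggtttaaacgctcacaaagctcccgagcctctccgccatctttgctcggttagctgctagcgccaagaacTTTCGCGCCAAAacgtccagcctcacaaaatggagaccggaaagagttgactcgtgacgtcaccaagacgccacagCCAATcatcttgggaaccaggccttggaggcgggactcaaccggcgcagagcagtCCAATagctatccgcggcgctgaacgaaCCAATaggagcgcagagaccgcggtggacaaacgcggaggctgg
Mcm6, chr1:128359656-128359955, minus strand: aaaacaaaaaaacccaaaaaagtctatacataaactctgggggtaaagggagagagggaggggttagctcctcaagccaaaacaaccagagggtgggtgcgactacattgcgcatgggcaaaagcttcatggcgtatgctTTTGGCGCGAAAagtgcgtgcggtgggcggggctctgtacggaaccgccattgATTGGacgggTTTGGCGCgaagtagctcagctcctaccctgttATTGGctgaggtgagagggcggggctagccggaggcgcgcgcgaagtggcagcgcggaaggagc
The 2 E2F-type words of Mcm5 overlap on opposite strands, as do 2 of the 3 in Mcm6. In Mcm3 both lie after the start, at bases 19 to 26 and 38 to 45. Mcm2 was the 1 replication gene with TTTGAA in its window.

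Signals are given as log2 of the deposited signal minus the 75th percentile of the same array. The median signal of an array lay between 74.0 and 183.9, and Feature Extraction marked 59.9% to 85.3% of its probes as well above background; 38 of the 40 members were above it on all 16 arrays and none was saturated. Cenpf was above background on 7 of 8 spleen arrays. Ccne2 was above it on 1 of 8 spleen and all 8 marrow arrays, so its spleen values lie mostly at the limit of the assay. Scan times placed the arrays on 4 slides: WT with STAT4-/- spleen, STAT6-/- with HDC-/- spleen, and the same pairs for marrow. Tissue and slide therefore cannot be told apart, whereas both diets of a genotype lay on 1 slide. Itgam read 3.13 to 6.05 in spleen (mean 4.40, SD 0.89) and 4.74 to 6.06 in marrow (mean 5.70, SD 0.44). In spleen it was lowest in HDC-/- on control diet and highest in STAT4-/- on HFD. These arrays also had the lowest and highest spleen mean of mitosis genes. The part of Itgam signal, or of CD11b+ cell content, in the results below was not tested.

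Some arrays stood against their labels. The mean of Uty, Ddx3y and Eif2s3y, which lie on the Y chromosome, was -8.39 to -5.57 on the 4 control-diet arrays labelled STAT4-/- and HDC-/-, against -0.61 to 0.35 on the other 12. Xist, an X-linked RNA typical of female cells, was higher on each of these 4 arrays than on any of the other 12. Its lowest value among the 4 was -4.20 (STAT4-/- control marrow). Its highest among the 12 was -5.44 (STAT4-/- HFD marrow). Diet differences within those 2 genotypes therefore also differ in Y-linked and Xist signal, and diet cannot be told apart from that difference there. Whether these pools held female mice, against their label, was not tested. Stat4 read 0.41 and 0.56 on the control arrays labelled STAT4-/-, within the -0.89 to 1.33 of other genotypes, and 2.74 and 3.51 on the HFD arrays so labelled. The labels do not say which part of the gene was deleted, so directions for STAT4-/- rest on the label alone. Hdc was low on its 4 knockout arrays (0.98 to 1.92, against 4.06 to 5.79 on 11 others), and Stat6 averaged 2.77 on its knockout arrays (SD 0.21, n = 4) and 3.46 on the others (SD 0.60, n = 12), with overlapping ranges. The spleen array labelled STAT4-/- on HFD resembled marrow in lymphoid markers. Its mature B cell mean was -0.98 (other spleen arrays 1.60 to 2.78, marrow -3.05 to 0.14). Its natural killer mean was -3.94 (other spleen arrays -1.34 to 1.34, marrow -4.64 to -1.39). Its T cell mean was -1.39 (other spleen arrays 0.60 to 1.85, marrow -2.68 to -1.36). Its dendritic cell mean (-1.84) lay between the tissues. The cause was not tested. In the main fit the p-values below measure only the spread left after a mean per genotype and tissue and a diet term per tissue. They do not measure how the tissue difference varied between genotypes.

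Are cell cycle genes expressed at different levels in CD11b+ cells of the spleen and the marrow? Every one of the 40 members had a lower mean in spleen, and 33 passed limma's test, all of them lower. Features called lower made up 17.1% of all those tested, and 14.9% were called higher. The calls comprised 10 of 14 replication genes and 23 of 26 mitosis genes. The median log2 change was -0.71 over replication genes and -1.35 over mitosis genes, against -0.06 over all features. In bulk RNA, fewer dividing cells and less of these transcripts per cell cannot be told apart.

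Without the 4 arrays low in Y-linked signal, all 40 members were still lower in spleen, with medians of -0.34 and -0.77 (all features -0.13). Only Tyms, Ccne2, Cdk1 and Aurkb were then called, with 2 residual degrees of freedom, while 5.48% of all features were called lower. With spleen and marrow arrays of the same genotype and diet set as 8 pairs, 32 members were called lower, 7 of replication and 25 of mitosis (18.3% of all features). The labels do not say whether both tissues of a pair came from the same mice. With WT and STAT6-/- arrays alone, 27 members were called lower, 3 of replication and 24 of mitosis (22.3% of all features). The medians were then -0.76 and -1.57. Without the 2 arrays nearer the other tissue, STAT4-/- HFD spleen and HDC-/- control marrow, all 40 members were lower in spleen. The medians were then -0.79 and -1.49 (all features -0.12).

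**Figure D1:**
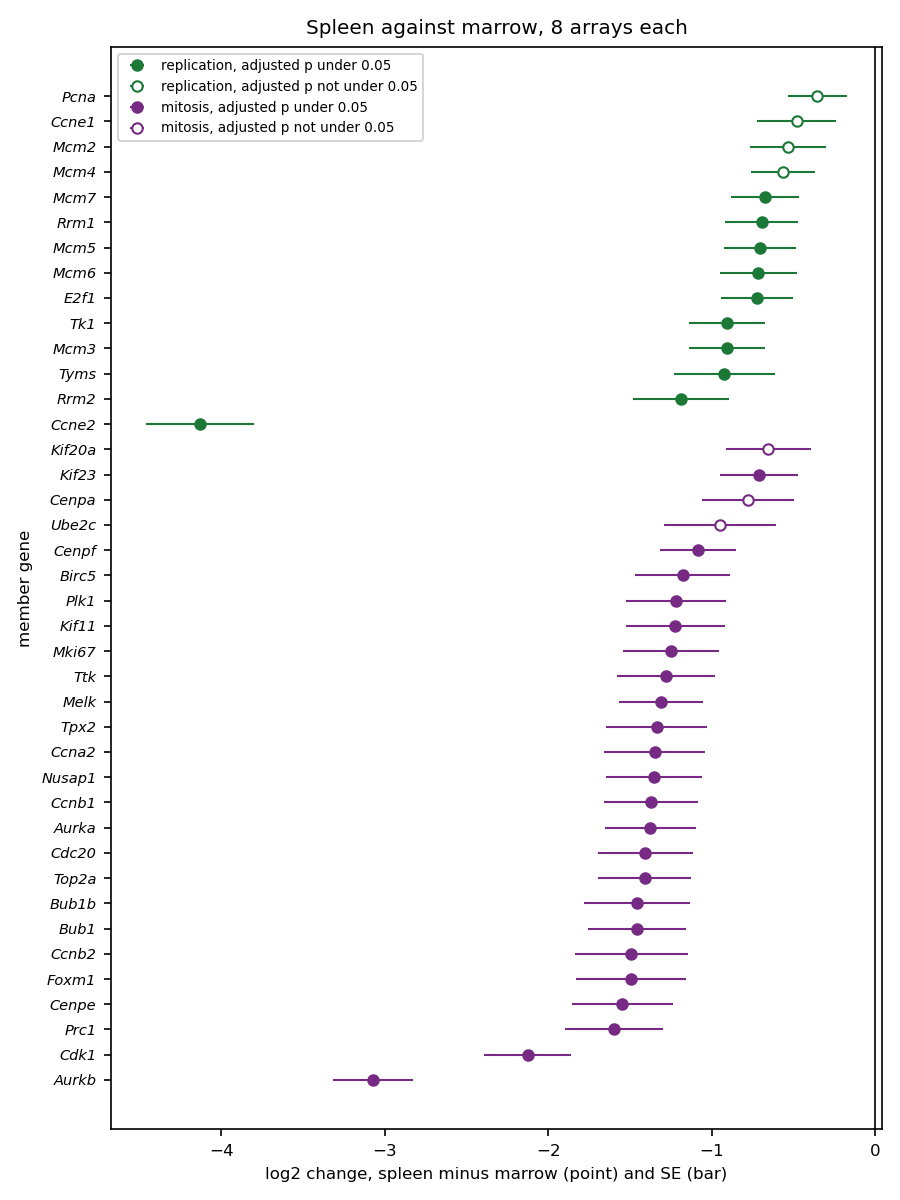
Log2 change from marrow to spleen for each member (8 arrays per tissue), with its limma SE as a bar, replication genes above mitosis genes. All 40 points lie below 0; filled points are the 33 past an adjusted p of 0.05. The point of Ccne2 has no measured size, since its signal was above background on 1 of 8 spleen arrays; Aurkb lies at -3.07.

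Of the 6 helicase subunits, 4 were called lower in spleen. Mcm2 had its lowest, median and highest signal at 0.61, 1.67 and 2.64 in spleen and at 1.94, 2.27 and 2.85 in marrow. Mcm5 read 1.87, 2.52 and 3.39 in spleen and 3.12, 3.30 and 3.57 in marrow. For both, the upper spleen arrays reached into the marrow range. By limma with Benjamini-Hochberg adjustment over all features, Mcm5 was lower in spleen by a log2 change of -0.70 (SE 0.22, 1.63-fold, adjusted p 0.0354). Mcm3 (-0.91), Mcm6 (-0.71) and Mcm7 (-0.67) were called as well. Mcm4 at -0.57 (adjusted p 0.0501) lay just outside the threshold, and Mcm2 at -0.53 (0.108) farther from it. The median change of the 6 subunits was -0.69. Without the WT marrow control array only 2 replication genes were called in all.

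Pcna, the sliding clamp, had the smallest change of all members. It read 4.10, 4.88 and 5.15 in spleen and 4.96, 5.22 and 5.32 in marrow, with overlapping tissues. The difference was -0.35 (SE 0.18, limma adjusted p 0.163).

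All 4 enzymes of nucleotide supply were called lower in spleen. Rrm2, the regulated subunit of ribonucleotide reductase, read 2.26, 3.76 and 4.92 in spleen and 4.48, 4.74 and 5.33 in marrow. Its change of -1.19 (SE 0.30, limma adjusted p 0.0138) was the largest of the 4. Tyms, thymidylate synthase, read -0.90, 0.13 and 0.84 in spleen and -0.39, 1.16 and 1.65 in marrow. Tyms was lower in spleen in all 8 pairs of the same genotype and diet (-0.92, SE 0.31, limma adjusted p 0.0442). The thymidine kinase Tk1 changed by -0.91 and the large reductase subunit Rrm1 by -0.69.

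Of the 3 regulators of S phase entry, Ccne2 and E2f1 were called lower. Ccne2 read -9.20, -7.86 and -5.95 in spleen and -4.15, -3.59 and -2.997 in marrow. The tissues did not overlap. Since 7 of 8 spleen arrays were not well above background, the size of the change is a bound. Each spleen array was set at the higher of its own value and the lowest signal among its detected probes. Ccne2 was then at least 13.5-fold lower in spleen. The limma adjusted p of 0.00016 is that of the measured values, not of the bound. Ccne1, the other E-type cyclin, read 0.36, 1.71 and 2.83 in spleen and 1.28, 2.00 and 2.58 in marrow. Its highest array was a spleen array, STAT6-/- on control diet, and it was not called (-0.48, SE 0.24, limma adjusted p 0.154). E2f1 read -1.82, -1.09 and -0.43 in spleen and -0.91, -0.44 and 0.17 in marrow, with a called change of -0.72 (SE 0.22, limma adjusted p 0.0312).

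All 8 mitotic cyclins and kinases were lower in spleen, with a median change of -1.37. Aurkb, the kinase of the chromosomal passenger complex, read -6.33, -5.34 and -4.27 in spleen and -2.90, -2.26 and -1.88 in marrow. Cdk1 read -1.03, 0.01 and 1.42 in spleen and 1.77, 2.21 and 2.40 in marrow. These 2 and Ccne2, with its spleen signal mostly at the limit, were the 3 members whose tissues did not overlap, as held for 0.913% of all features with spleen below marrow. Aurkb changed by -3.07 (SE 0.24, 8.41-fold, limma adjusted p 0.00016) and Cdk1 by -2.13 (SE 0.27, 4.37-fold, limma adjusted p 0.000717). The size of the Cdk1 change depended on the probe. Its other 2 probes gave -0.50 (12 arrays above background, limma adjusted p 0.255, not called) and -3.31 (limma adjusted p 0.000147). Ccnb1, the main mitotic cyclin, read -0.46, 1.05 and 2.39 in spleen and 1.47, 2.14 and 2.77 in marrow. It was lower by -1.37 on the log2 scale (SE 0.29, limma adjusted p 0.00677). Its other probes gave -0.97 and -0.75, and neither was called (limma adjusted p 0.0554 and 0.145). Further calls were Aurka (-1.37), Ccna2 (-1.35), Melk (-1.31) and Plk1 (-1.22).

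Ccnb2, the cyclin whose window is shown above, read 0.83, 2.62 and 4.21 in spleen and 3.63, 3.998 and 4.68 in marrow. Foxm1, a transcription factor of late cell cycle genes, read -1.31, -0.20 and 1.55 in spleen and 0.96, 1.51 and 2.02 in marrow. For both, the highest spleen array lay inside the marrow range. Each changed by -1.49 on the log2 scale (Ccnb2 SE 0.35, adjusted p 0.0103; Foxm1 SE 0.34, adjusted p 0.0093; limma).

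The spindle checkpoint genes Bub1 (-1.46), Bub1b (-1.46) and Ttk (-1.28) were called lower in spleen, as was Cdc20 (-1.40), an activator of the anaphase promoting complex. Ube2c, the ubiquitin-conjugating enzyme of that complex, was not (-0.95, SE 0.34, limma adjusted p 0.0577), although its other probe gave -1.05 (limma adjusted p 0.0347).

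Among centromere and chromosome genes, Mki67, the gene of the proliferation antigen Ki-67, read 2.41, 3.63 and 5.08 in spleen and 4.36, 5.04 and 5.24 in marrow. Top2a, a topoisomerase that untangles sister chromosomes, read -0.38, 0.36 and 1.90 in spleen and 1.66, 1.91 and 2.42 in marrow. Most spleen arrays lay below the marrow range in both, and the highest spleen arrays lay inside it. Mki67 changed by -1.25 (SE 0.29, 2.37-fold, limma adjusted p 0.0112) and Top2a by -1.41 (SE 0.28, 2.66-fold, limma adjusted p 0.00587). Cenpe, a kinetochore motor, read -0.24, 0.83 and 2.13 in spleen and 1.51, 2.45 and 2.92 in marrow, with a called change of -1.55 (SE 0.31, limma adjusted p 0.00549). Birc5 (survivin, -1.18) and Cenpf (-1.08), a kinetochore protein, were called too. The other Birc5 probes gave -0.90 (limma adjusted p 0.048) and -0.63 (limma adjusted p 0.166, not called). The centromeric histone Cenpa was not (-0.78, limma adjusted p 0.0588).

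Of the spindle and cytokinesis genes, Prc1, a bundler of the central spindle, read 0.55, 1.41 and 2.84 in spleen and 2.42, 3.23 and 3.65 in marrow. It changed most of this group (-1.60, SE 0.30, limma adjusted p 0.00419). Nusap1 (-1.35), Tpx2 (-1.33), Kif11 (-1.22) and Kif23 (-0.71) were called as well. The mitotic kinesin Kif20a was not (-0.65, limma adjusted p 0.0807). In all, 8 members were lower in spleen in every one of the 8 pairs: Mcm3, Tyms, Ccne2, Cdk1, Aurkb, Melk, Top2a and Kif23. Features lower in all 8 pairs made up 8.95% of those tested.

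Members varied more among spleen arrays than among marrow arrays. The SD over 8 arrays was larger in spleen for 40 of 40 members, against 44.7% of all features. For Ccnb2 it was 1.14 in spleen and 0.35 in marrow, and for Bub1b 1.11 and 0.22. The spleen array labelled STAT4-/- on HFD was the highest of 8 for 32 members, all 26 mitosis genes among them (48.2% of all features). The other 8, all replication genes, were highest on the STAT6-/- control array. For 38 members the lowest spleen array was HDC-/- or WT on control diet (52.6% of all features).

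**Figure D2:**
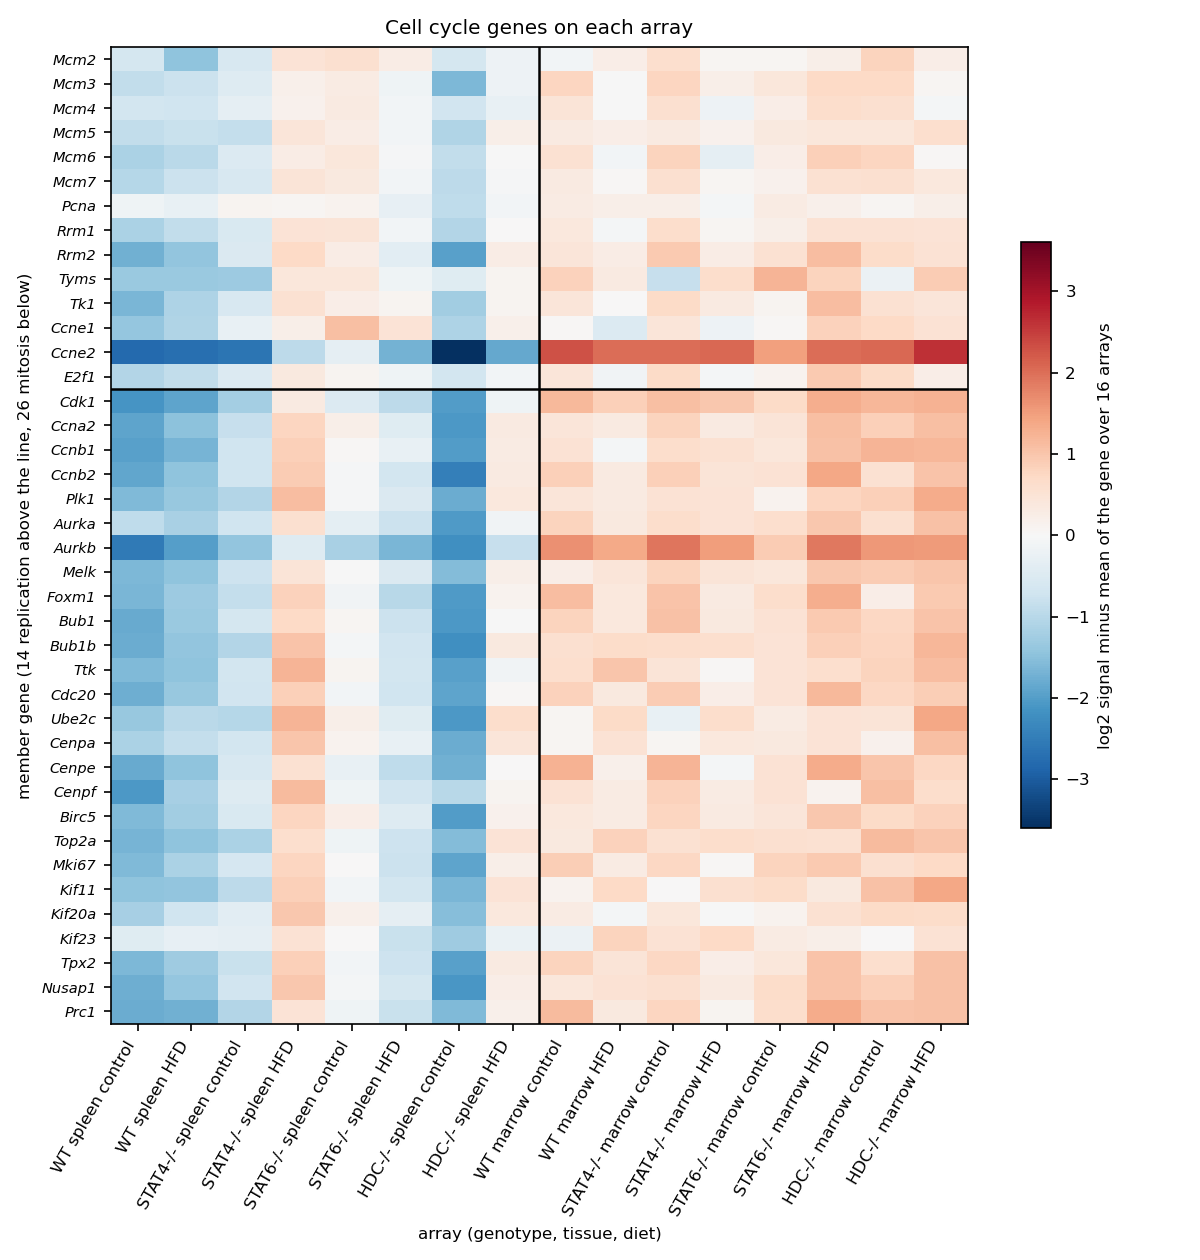
Log2 signal of each member (rows) on each array (columns) minus the gene's mean over 16 arrays, on a colour scale from blue (low) to red (high). The marrow columns are mostly red, whereas spleen columns run from deep blue (HDC-/- and WT on control diet) to red (STAT4-/- on HFD).

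Each set was summarised per array as its mean log2 deviation from the gene means. For mitosis genes this was -1.86 in HDC-/- control spleen, -1.63 and -1.32 in WT spleen on control diet and HFD, and -0.79 in STAT4-/- control spleen. It was -0.69 and -0.08 in STAT6-/- spleen on HFD and control diet, 0.16 in HDC-/- HFD spleen and 0.77 in STAT4-/- HFD spleen. Marrow arrays ranged from 0.42 to 1.03, so STAT4-/- HFD spleen lay inside the marrow range. The replication mean ran from -1.20 to 0.33 in spleen and from 0.18 to 0.78 in marrow.

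How did replication genes compare with mitosis genes? Both means are deviations from the mean over all 16 arrays, so their difference, mitosis minus replication, sums to 0 over the arrays. Its order over arrays can be read, but not its sign. It was 0.08 to 0.52 on marrow arrays. On spleen arrays it had a median of -0.33, with 6 of 8 below all marrow arrays, the HDC-/- control array lowest (-0.66), and STAT4-/- HFD (0.49) and HDC-/- HFD (0.30) inside the marrow range. The set of 8 members was ambiguous: Ccna2, Top2a, Mki67, Melk, Foxm1, Ccne1, Ccne2 and E2f1. Without them the difference was 0.13 to 0.70 on marrow arrays and -0.83 to 0.40 on spleen arrays. The same 6 spleen arrays lay below all marrow arrays. The gap between the set medians of spleen against marrow, mitosis minus replication, was -0.64 in the fit and between -1.11 and 0.10 by pair, above 0 for STAT4-/- on HFD alone. On the STAT6-/- control arrays, 7 of 14 replication genes but 1 of 26 mitosis genes were higher in spleen than in marrow. These are counts and medians with no test over the set.

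**Figure D3:**
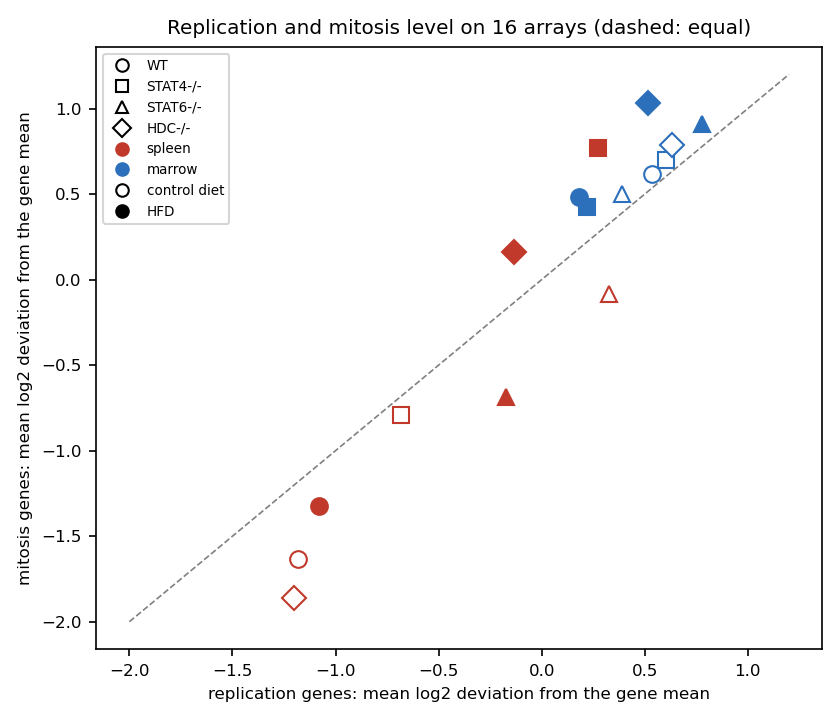
Mean log2 deviation of mitosis genes (vertical) against that of replication genes (horizontal) on 16 arrays, with tissue by colour, genotype by shape and HFD filled; the dashed line marks equal deviations from the 16-array means, not equal levels. Marrow points lie 0.08 to 0.52 above the line, and 6 of 8 spleen points lie lower against it than every marrow point.

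Markers of other cells moved with these values. Mpo, Elane, Prtn3 and Ctsg encode proteins of the primary granules of granulocyte precursors. To these the primary granule list adds Ms4a3, Cebpe, Gfi1 and Nkg7, the last also a natural killer cell gene. All 8 were above background on all 16 arrays. Their mean signal was 0.95 in HDC-/- control spleen, 2.45 in WT control, 2.98 in WT HFD and 3.46 in STAT4-/- control. It was 3.38 in STAT6-/- HFD, 4.05 in STAT6-/- control, 4.68 in HDC-/- HFD and 5.47 in STAT4-/- HFD spleen, and 4.63 to 5.25 in marrow. The 8 spleen arrays had the same order by mitosis mean, save that STAT6-/- HFD and STAT4-/- control changed places. The extremes were not particular to this list. The mean of 9 mature neutrophil genes was also lowest in HDC-/- control spleen (2.87). It was highest in STAT4-/- HFD (4.98), then HDC-/- HFD (4.23), and 3.81 to 4.07 on the remaining spleen arrays. In the tissue comparison 6 of the 8 primary granule list genes were called lower in spleen by limma, with a median change of -1.67. So were 8 of 9 mature neutrophil genes (-1.06).

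Lymphoid, natural killer and dendritic cell markers were higher in spleen, whereas early B cell markers were mostly lower. Called higher in spleen were 10 of 10 mature B cell genes, 8 of 9 T cell genes, 8 of 8 natural killer genes and 7 of 8 dendritic cell genes. The mature B cell mean ran from -0.98 (STAT4-/- HFD) to 2.78 (HDC-/- control) over spleen arrays and from -3.05 to 0.14 over marrow arrays. Pro-B and pre-B cells and erythroid precursors are other dividing lineages. Of 11 pro-B and pre-B genes, 6 were called lower in spleen and 2 higher by limma, with a median change of -1.64; their mean signal was -3.82 to -2.63 over spleen arrays and -4.13 to 1.23 over marrow arrays, highest in HDC-/- control marrow. Of 11 erythroid genes 6 were called higher in spleen. Their mean signal was -1.57 (HDC-/- control) to 2.33 (STAT6-/- control) over spleen arrays and -1.81 to 0.73 over marrow arrays. It was 1.72 in STAT6-/- HFD spleen, and -0.25 and 0.62 in WT spleen on control diet and HFD. Of 8 megakaryocyte genes 2 were called lower (median -0.84). The part of these cell types in the cell cycle result was not tested.

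**Figure D4:**
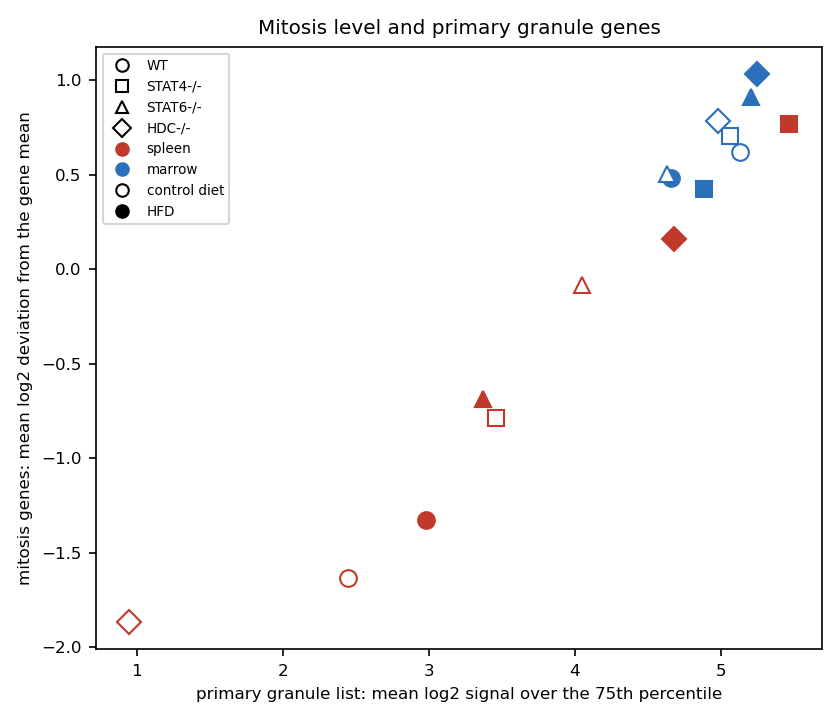
Mean log2 deviation of the 26 mitosis genes (vertical) against the mean log2 signal of the 8 genes of the primary granule list over the array's 75th percentile (horizontal), symbols as in the plot of mitosis against replication. Spleen points climb from 0.95 and -1.86 (HDC-/- control) to 5.47 and 0.77 (STAT4-/- HFD), where the marrow points lie.

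Further genes of the same pathways were read in the tissue comparison. Of 61 other mitosis genes measured, 55 were called lower in spleen by limma and none higher, with a median of -1.16. Gtse1 (-1.90), the cytokinesis scaffold Anln (-1.69) and the kinetochore subunit Spc25 (-1.65) changed most. Of 52 other replication genes, 24 were called lower and 2 higher (median -0.59). The origin firing factor Ticrr (-1.77), Clspn (claspin, -1.29) and the primase subunit Prim2 (-1.19) were lowest. The polymerase delta subunit Pold2 (1.02) and the origin recognition subunit Orc2 (0.93) were the 2 that were higher.

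G1 regulators divided between the tissues. Of 14 genes, 9 were called lower in spleen, led by the E2F repressors E2f7 (-1.94) and E2f8 (-1.60) and by Myb (-1.73), a factor of blood precursors. The 3 called higher were cyclins Ccnd1 (3.999) and Ccnd2 (2.53) and the growth regulator Myc (2.63). Of 20 cell cycle inhibitors, 5 were called lower and 4 higher, beside 17.1% and 14.9% of all features. Lower were the kinase inhibitors Cdkn2c (-1.38) and Cdkn2d (-1.13) and the repressor E2f4 (-0.85), and higher were E2f5 (2.29) and Tob2 (0.95). Cdkn2a was above background on 7 spleen arrays and on none from marrow, and was at least 3.81-fold higher in spleen. That bound takes the lowest signal among detected probes of each marrow array. The limma adjusted p of 0.00639 is that of the measured values, not of the bound.

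Did the high-fat diet change these genes? In spleen, limma called 0 members and 0% of all features. All 40 members had a positive difference (64.1% of all features did; 39 members with median scaling or normexp), with medians of 0.43 for replication and 0.81 for mitosis genes, against 0.15 over all features. At an unadjusted p under 0.05 there were 7 members higher, all mitosis genes (2.71% of features). The smallest p belonged to Ube2c (1.18, SE 0.48) and Bub1b (1.101, SE 0.46), both at an adjusted p of 0.771 in limma.

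By genotype, with 1 array a diet and no test, the differences had different signs. In WT spleen the median member differed by 0.28 between HFD and control array, with 36 of 40 higher. In STAT6-/- spleen it was -0.56, and all 40 were lower on HFD. In spleen labelled STAT4-/- it was 1.36, with 39 higher, and in HDC-/- spleen 1.84, with all 40 higher. The 2 genotypes with the large positive values are those whose control arrays are low in Y-linked signal. In WT and STAT6-/- arrays alone, 3 of 40 members were positive, and Ube2c (-0.12) and Bub1b (-0.13) changed sign.

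Single genes show the same split. Mki67 read 2.72 in control and 3.18 in HFD spleen of WT, 4.33 and 3.55 in STAT6-/-, 3.72 and 5.08 in STAT4-/-, and 2.41 and 4.53 in HDC-/-. Ube2c read 1.82 and 2.21 in WT, 3.38 and 2.74 in STAT6-/-, 2.14 and 4.38 in STAT4-/-, and 1.105 and 3.81 in HDC-/-. Bub1b read -0.88 and -0.52 in WT, 0.83 and 0.21 in STAT6-/-, -0.17 and 1.91 in STAT4-/-, and -1.32 and 1.25 in HDC-/-. In each gene the HFD arrays overlapped the control arrays across genotypes, and STAT6-/- control lay above both WT arrays. Genes of the primary granule list had a median diet difference of 1.57 in spleen, positive for 8 of 8 and called for none. Their part was not tested.

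In marrow limma called 0 members and 0% of all features on HFD, and 0 members had an unadjusted p under 0.05 (3.6% of features did, with a higher value). The difference was positive for 20 of 40, with medians of -0.14 and 0.07. The members with the smallest p were Ube2c (0.67, adjusted p 0.71 in limma) and Kif23 (0.40) above 0, and Mcm6 (-0.47) and Mcm4 (-0.37) below. Ube2c read 3.24 and 3.85 in control and HFD marrow of WT, 2.89 and 3.81 in STAT4-/-, 3.48 and 3.68 in STAT6-/-, and 3.64 and 4.58 in HDC-/-. It was higher on HFD in each of these 4 pairs. By pair, the median member differed by -0.29 in WT, -0.43 in STAT4-/-, 0.42 in STAT6-/- and 0.14 in HDC-/- marrow. Without the STAT6-/- pair the medians over the sets were -0.33 and -0.12.

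The diet difference in spleen minus that in marrow was positive for 39 members (54.8% of features), with 0 called by limma, 0% of features called and 1 member, Cenpf, at an unadjusted p under 0.05 (0.566% of features higher). The medians were 0.58 and 0.84, and turned to -0.15 and -0.30 in WT and STAT6-/- arrays alone, where 12 of 14 replication and 24 of 26 mitosis genes were negative. Over both tissues 36 were positive (63.1% of features), with 0 called by limma (0% of features) and 2 higher at an unadjusted p under 0.05 (8.44% of features). Their medians were 0.12 and 0.42, and -0.10 and 0.01 in WT and STAT6-/- arrays alone.

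**Figure D5:**
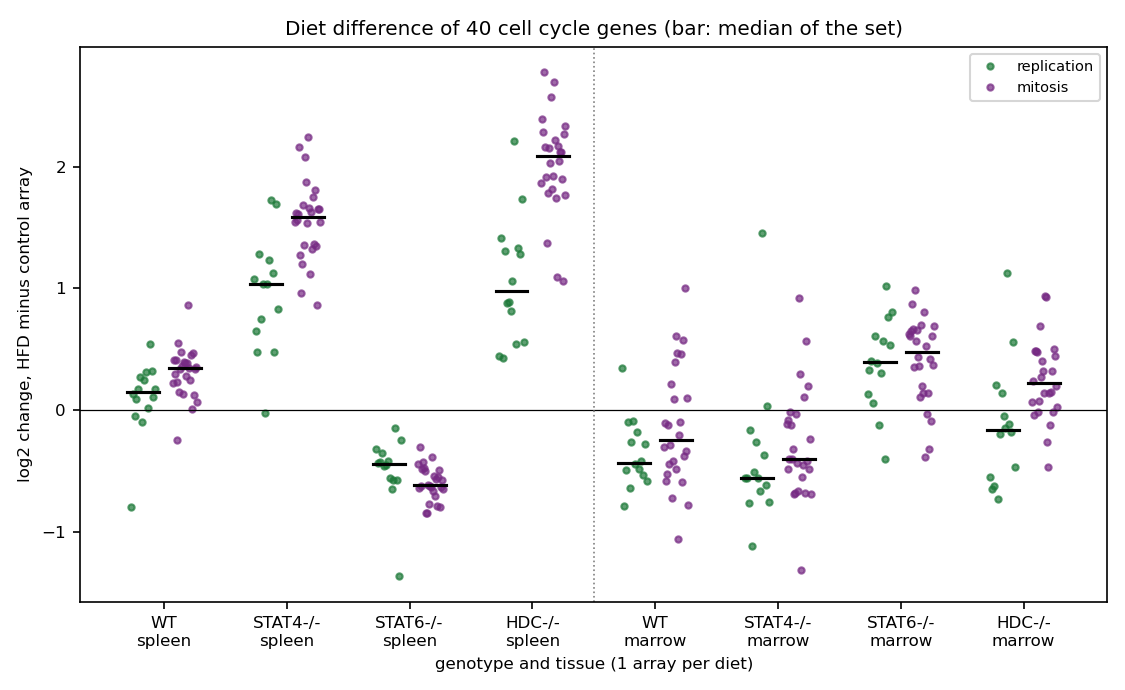
Log2 difference between the HFD and the control array for each member, by genotype and tissue, with the median of each set as a bar. In spleen the STAT6-/- points all lie below 0 and the HDC-/- points all above; marrow points straddle 0 in all genotypes.

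Did the knockouts differ from WT? These comparisons share the WT arrays, and limma called 0 members in any of them. With each array's median as the scale, the median of all features moved to 0.07 for STAT4-/-, -0.06 for STAT6-/- and -0.04 for HDC-/- against WT in spleen, so members are read against the median of all features. In spleen labelled STAT4-/-, all 40 members had positive differences (73.1% of features), with medians of 0.92 and 1.49 against 0.49 over all features. Of these, 25 had an unadjusted p under 0.05 (24.9% of features higher), and 0.00695% of features were called higher and 0.00347% lower. With median scaling 39 were positive, and the medians were 0.49 and 1.06. They were 0.49 and 1.04 without the STAT4-/- HFD spleen array. Without that array and the HDC-/- control spleen array they were 0.28 and 0.69, against 0.32 over all features. The 2 smallest p were those of Cenpf (1.97, SE 0.46, adjusted p 0.0558) and Ccnb1 (1.89, SE 0.57, adjusted p 0.0826) by limma. Cenpf read -5.58 and -3.95 in STAT4-/- spleen on control diet and HFD, and -7.17 and -6.31 in WT. Both values lay above both WT values. The WT control value was the lowest of Cenpf in spleen, where 7 of 8 arrays were well above background. The size of its differences from WT is therefore uncertain. Without the 2 arrays low in Y-linked signal in this genotype and the 2 in HDC-/-, the medians were 1.45 and 2.40 and the STAT4-/- spleen value rested on 1 array; the checkpoint kinase Ttk was then called (2.89, limma adjusted p 0.0478), as were 0.576% of features higher and 1.75% lower. Without either HDC-/- marrow array, Cenpf was called (limma adjusted p 0.0485) among 1610 features (5.24% higher).

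In STAT6-/- spleen 39 members had positive differences (68.6% of features), with medians of 1.22 and 1.18 against 0.28 over all features. Of these, 14 had an unadjusted p under 0.05 (13.1% of features higher), 9 of them replication genes; 0.0104% of features were called higher, 0.00347% lower and 0.0139% in all. With median scaling 38 were positive, and the medians were 0.88 and 0.83. Ccne1 read 2.83 and 2.26 in STAT6-/- spleen on control diet and HFD and 0.36 and 0.68 in WT (2.03, SE 0.48, limma adjusted p 0.302). Tk1 read 2.96 and 2.82, against 1.09 and 1.63 in WT (1.54, SE 0.47, limma adjusted p 0.302). In both the STAT6-/- arrays lay above the WT arrays. The 2 STAT6-/- arrays were apart: the medians were 0.55 and 0.16 without the control spleen array and 1.76 and 2.09 without the HFD spleen array. Kif23, the exception in sign, had a difference of -0.04. STAT6-/- and WT lay on different slides, which cannot be told apart from genotype. On control diet and HFD, the erythroid mean was also higher in STAT6-/- spleen (2.33 and 1.72) than in WT (-0.25 and 0.62). Its part was not tested.

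In HDC-/- spleen 36 members had positive differences (71.7% of features), with medians of 0.54 and 0.64 against 0.31 over all features, and 1 had an unadjusted p under 0.05 (14.5% of features higher); 0.0208% of features were called higher, 0.00695% lower and 0.0278% in all. With median scaling 33 were positive, and the medians were 0.19 and 0.29. That member was Cenpf (1.19, SE 0.46, limma adjusted p 0.257), with the same limit from its low WT control value. Tyms followed (1.15, SE 0.62, limma adjusted p 0.388), and Kif23 (-0.40) and Pcna (-0.29) lay below 0. The 2 HDC-/- arrays were far apart: without the HDC-/- control spleen array the medians were 0.88 and 1.48, and without the HDC-/- HFD spleen array 0.09 and -0.25. HDC-/- lay on another slide than WT.

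In marrow, medians against WT were 0.12 and 0.00 for STAT4-/-, 0.21 and 0.17 for STAT6-/-, and 0.23 and 0.32 for HDC-/-. Limma called 0 members, and 0 had an unadjusted p under 0.05. In the same order of genotypes, 0.667%, 0.601% and 1.8% of all features did with a higher value. Features called for STAT4-/- made up 0.0104% (0.00695% higher, 0.00347% lower). For STAT6-/- 3.35% were called (0.0625% higher, 3.29% lower), and for HDC-/- 12% (0.233% higher, 11.8% lower). These counts (3456 features for HDC-/- and 964 for STAT6-/-) changed when 1 marrow array was left out. For HDC-/- the count fell without either WT array or the HDC-/- control array, and rose without the HDC-/- HFD array. For STAT6-/- it fell without any 1 of the WT and STAT6-/- arrays. The median of all features was -0.18 for STAT6-/- and -0.45 for HDC-/-, while 32 and 36 of the 40 members had positive differences (34.8% and 28.4% of features). With median scaling the member medians were 0.23 and 0.11, 0.42 and 0.38, and 0.56 and 0.64, against -0.03, 0.02 and -0.13 over all features. They were below 0 for STAT4-/- without its control marrow array (-0.11 and -0.15) and for STAT6-/- without its HFD marrow array (-0.15 and -0.07).

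Over both tissues, limma again called 0 members. For STAT4-/- against WT 40 were positive (70.6% of features), with medians of 0.48 and 0.75 and 6 higher at an unadjusted p under 0.05 (8.58% of features). Features called were 0.0104% higher, 0.00695% lower and 0.0174% in all. For STAT6-/- 39 were positive (48.9% of features), with medians of 0.69 and 0.63 and 8 higher at an unadjusted p under 0.05 (2.84% of features); without the STAT6-/- control spleen array the medians were 0.42 and 0.13. Features called were 0.0139% higher, 0.0174% lower and 0.0313% in all. For HDC-/- 37 were positive (43.4% of features), with medians of 0.40 and 0.47 and 3 higher at an unadjusted p under 0.05 (2.76% of features); without the HDC-/- HFD spleen array the medians were 0.21 and 0.08, and without the HDC-/- control spleen array 0.55 and 0.92. Features called were 0.0521% higher, 0.101% lower and 0.153% in all.

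STAT6-/- and HDC-/- shared slides. Over both tissues 5 of 40 members had positive differences for HDC-/- against STAT6-/- (40.2% of features), with medians of -0.39 and -0.15. The mitosis median turned to 0.31 without the STAT6-/- control spleen array and to 0.25 without the HDC-/- control spleen array. Without the 4 arrays low in Y-linked signal no mitosis gene and 9 replication genes were negative, with medians of -0.12 and 0.39, so the direction for mitosis genes rested on single arrays. Limma called 0 members, and 0 had an unadjusted p under 0.05 (2.47% of features did, with a higher value). Features called were 0.00695% higher, 0.00347% lower and 0.0104% in all.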

How the data were processed

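Total RNA of CD11b+ cells was labelled with Cy3 and hybridised to 1-colour Agilent arrays. The deposited values are spot intensity values that the authors made with Agilent Feature Extraction 11.0.1.1, per the file headers; the processed signal is background-subtracted and not scaled between arrays. Of 39429 noncontrol probes, 27234 (69.1%) matched a symbol through RefSeq accessions, and 305 flagged as outlying on an array were left out. The log2 signal minus each array's 75th percentile was fitted in limma 3.58.1 (R 4.3.3), with a mean per genotype and tissue and a diet term per tissue (6 residual degrees of freedom), two-sided, with Benjamini-Hochberg adjustment over 28797 features and calls at 0.05. The spread comes from the lack of fit of these terms, since no combination was repeated. The number of arrays limits the precision.

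Wider gene and marker lists, members and named genes were chosen with earlier results of these data known. Array values are given for 13 fixed members, plus up to 4 per comparison with the largest called change or smallest p; wider lists name up to 3 called genes on each side. For members with several probes the brightest was used. The fit was tested on simulated data. Scalings, background correction, filters, probe choice, prior, model and arrays left out were varied; leaving out the 4 arrays low in Y-linked signal, the 2 extreme spleen arrays or the spleen arrays of 2 genotypes, the paired tissue fit and the random slide block were chosen after seeing the data.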

Additional observations from a re-analysis of the deposited data

Results flagged for a closer look

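Among 84 sets of 8 arrays (40 members and 2 set means in each tissue), 2 held an array far from the others, and chance alone flags about 1 in 20 such sets. Pcna read 4.10 in HDC-/- control spleen, where the nearest of the other 7 spleen arrays read 4.73. That array also had the lowest mitosis mean. Cenpa read 3.80 in HDC-/- HFD marrow, where the next marrow array read 3.24. The cause was not tested in either case.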

How the results depend on the processing

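With each pair of genotype and diet as a replicate block, 32 members were called in the tissue comparison in place of 33. Diet and genotype comparisons had no such block, since each combination has 1 array. In the tissue comparison the 33 calls became 4 without the 4 arrays low in Y-linked signal, with 2 residual degrees of freedom in place of 6, and 26 to 36 under the 15 other alternatives. Leaving out 1 array gave 24 (WT control marrow) to 37 (STAT6-/- control spleen). No member changed sign in any of these. Over those 15 alternatives mitosis calls ranged from 22 to 25 and replication calls from 3 to 11, and with 1 array left out from 22 to 26 and from 2 to 11. Replication calls were 5 under quantile normalization, 6 under normexp and 4 with the 75th percentile of probes detected on all arrays, which moved the median of all features from -0.06 to 0.13. The gap between set medians ranged from -0.81 to -0.42, and from -0.79 to -0.51 with 1 array left out. For STAT4-/- against WT in spleen, 0 calls became 1 without the 4 arrays low in Y-linked signal (Ttk) and without either HDC-/- marrow array (Cenpf); leaving out 1 array gave 0 to 1. All other diet and genotype comparisons kept 0 calls.

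In diet in spleen, Ube2c (-0.12) and Bub1b (-0.13) reversed with WT and STAT6-/- arrays only, without the spleen arrays of highest and lowest mitosis level, without the spleen arrays of STAT4-/- and HDC-/-, and without the 4 arrays. Against WT in spleen, Kif23 in STAT6-/- became 0.09 without WT control and 0.71 without STAT6-/- HFD (-0.78 without STAT6-/- control). In HDC-/- without its control array, Kif23 became 0.10 and Pcna 0.21 (-0.90 and -0.78 without HDC-/- HFD), and without the 4 arrays 0.30 and 0.25. The cause was not tested. The slide block could not be fitted beside the main terms; in the additive model it had a correlation of -0.00814 and gave 34 tissue calls. Normexp was planned on mean signals and run on median signals.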
